A study of Homo sapiens with 18 samples.

Results

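Tubulins are the protein subunits of microtubules, and this account covers 10 of the genes that encode them in LNCaP cells, an androgen-responsive human prostate cancer line, after chemical inhibition or siRNA knockdown of the poly(ADP-ribose) polymerases PARP1 and PARP2. The 10 genes (TUBA1A, TUBA1B, TUBA1C, TUBA4A, TUBB, TUBB2A, TUBB3, TUBB4B, TUBB6 and TUBG1) were taken by symbol from 22027 genes in all, and each had a row in both expression tables. They were selected on a measured value, the difference of TUBA1A between the PARP1 and the PARP2 siRNAs, so TUBA1A against the control siRNA, and every gene between the PARP2 and the PARP1 siRNAs, are described here without a test. RNA-seq was made from 18 libraries in 9 groups of 2, deposited as biological duplicates. In the inhibitor experiment the cells received 10 uM of UPF1069, olaparib or veliparib, or the solvent DMSO, for 24 hours. In the knockdown experiment they were transfected for 72 hours with an siRNA against PARP1 (siPARP1_A or siPARP1_B), an siRNA against PARP2 (siPARP2_A or siPARP2_B) or a control siRNA (siNC), so each target was reached by 2 sequences. All groups share the LNCaP background, grown in RPMI medium with serum, and it is a single tumour line.

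Microtubules are built from heterodimers of alpha- and beta-tubulin, and gamma-tubulin nucleates them at the centrosome. The alpha and beta subunits come in several isotypes encoded by separate, closely related genes. TUBA1A is known mostly from developing neurons, TUBA1B and TUBA1C are the ubiquitous alpha isotypes, TUBB and TUBB4B are the broadly expressed beta isotypes, and TUBB2A, TUBB3 and TUBB6 are the more restricted beta genes. Tubulin mRNAs are also controlled as a family, because free tubulin dimers trigger decay of tubulin mRNAs while they are translated, and the factor TTC5 recognises the start of the nascent tubulin chain. UPF1069 is sold as an inhibitor with preference for PARP2, whereas olaparib and veliparib inhibit both enzymes.

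The start of each coding sequence is shown because the alpha- and beta-tubulin chains it encodes begin with the residues that TTC5 recognises, with the first 4 codons in capitals. The gamma-tubulin gene TUBG1 is shown for comparison and starts with other codons. The letters are those of GENCODE v29 transcripts.
TUBA1A: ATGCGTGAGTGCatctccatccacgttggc
TUBA1B: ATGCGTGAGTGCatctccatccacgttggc
TUBA1C: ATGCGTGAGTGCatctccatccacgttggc
TUBA4A: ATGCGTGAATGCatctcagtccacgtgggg
TUBB: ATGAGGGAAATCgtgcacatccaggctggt
TUBB2A: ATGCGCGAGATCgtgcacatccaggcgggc
TUBB3: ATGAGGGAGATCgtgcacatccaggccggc
TUBB4B: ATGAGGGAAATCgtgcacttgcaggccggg
TUBB6: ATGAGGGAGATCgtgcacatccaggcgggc
TUBG1: ATGCCGAGGGAAatcatcaccctacagttg
The first 30 bases are the same in TUBA1A, TUBA1B and TUBA1C, all on chromosome 12, while TUBA4A lies on chromosome 2, TUBB and TUBB2A on chromosome 6, TUBB3 on 16, TUBB4B on 9, TUBB6 on 18 and TUBG1 on 17.

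Near-identical genes can share reads. Over the whole coding sequence TUBA1A was 97.2% identical to TUBA1B, 96.3% to TUBA1C and 84.9% to TUBA4A. Identity ranged from 84.9 to 97.3% over the 6 alpha pairs, from 81.2 to 88.6% over the 10 beta pairs, from 55.4 to 58.1% between alpha and beta genes, and from 52.7 to 56.6% between TUBG1 and the others. Stretches of 50 bases were looked for on either strand, so overlap with a neighbouring gene counts as well as a near copy. A stretch of the TUBA1A transcript also occurred in another annotated gene for 51.8% of positions, against 87.1% for TUBA1B, 40.1% for TUBA1C and 32.6% for TUBA4A. Among the beta genes the share was 89.4% for TUBB3, nearly all of it in an overlapping transcript, 65.5% for TUBB2A, most of it in TUBB2B, 30.8% for TUBB, 14.6% for TUBB4B and 0.993% for TUBB6, and it was 30.3% for TUBG1, mostly in TUBG2. For TUBA1B the largest part was in the annotated gene AC011603.2 (68.7%), with 38.6% in TUBA1A and 37.2% in TUBA1C. For TUBA1C it was 20.0% in AC125611.3 and 19.9% in TUBA1B, and for TUBA1A 35.3% in TUBA1C and 32.6% in TUBA1B. How reads that match 2 genes were counted is not given in the sources used here. The levels of TUBA1A, TUBA1B, TUBA1C, TUBB2A and TUBB3 are therefore uncertain to that extent.

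The libraries held 26.4 to 35.7 M assigned reads in the inhibitor table, where values are counts scaled to the library's reads (CPM), and 15.5 to 18.6 M in the siRNA table, where values are reads scaled by library size on a scale close to CPM, called normalised reads here. A value of 3 reads corresponded to between 0.0841 and 0.113 CPM and to between 0.169 and 0.207 normalised reads. PARP1 averaged 5.22 ± 0.63 with siPARP1_A, 9.02 ± 0.042 with siPARP1_B, 402 ± 10.2 with siPARP2_A and 153 ± 11.1 with siPARP2_B, against 465 ± 19.4 with siNC (SD, n = 2 each), so siPARP2_B libraries also held less PARP1 mRNA. PARP2 averaged 21.5 ± 0.83 with siPARP1_A, 18.9 ± 1.3 with siPARP1_B, 2.81 ± 0.35 with siPARP2_A and 1.40 ± 0.54 with siPARP2_B, against 27.4 ± 2.2 with siNC. Of 8 luminal LNCaP markers, 8 were above 1 in every siRNA library and 7 in every inhibitor library; the exception, KRT8, had 0.0313 to 0.226 CPM in the inhibitor table but 452 to 1069 in the siRNA table. The 2 tables were normalised apart, and whether reads were counted in the same way for both, which could also touch genes with near copies such as the tubulins, is not given in the sources used here and was not tested; no level is compared between them. Of the basal and the immune markers, 1 of 3 each had a row in either table, with summed levels under 1 in every library. Of the stromal markers 1 of 3 had a row, COL1A1, at 9.90 to 14.0 CPM and 0.829 to 3.81 normalised reads, and of the endothelial markers 1 of 3, VWF, at 5.39 to 11.3 CPM and 0.967 to 8.51 normalised reads. Of the neuroendocrine markers 3 of 4 had a row, with a sum of 24.4 to 39.0 CPM and 5.99 to 18.9 normalised reads, most of it ENO2. The part of these markers in the tubulin values was not tested.

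TUBA1A had the widest range of the 10 genes over the knockdown groups, 65.8-fold between the highest and the lowest group mean. It had 3.51 and 2.99 normalised reads in the siPARP1_A libraries (47 to 58 reads), 29.97 and 32.95 with siPARP1_B, 43.1 and 49.6 with siPARP2_A and 217 and 211 with siPARP2_B, against 101 and 95.9 with siNC. No neighbouring groups overlapped in that order, and siPARP2_A sat on the same side of siNC as the PARP1 siRNAs, below it. On the log2(value + 1) scale used throughout, TUBA1A differed from siNC by -4.55 with siPARP1_A, -1.62 with siPARP1_B, -1.08 with siPARP2_A and 1.11 with siPARP2_B. Averaged over both sequences of each target, it was 3.10 higher with the PARP2 than with the PARP1 siRNAs, the value these genes were chosen by. The siPARP1_A difference was -4.90 by edgeR on the recovered reads.

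**Figure D1:**
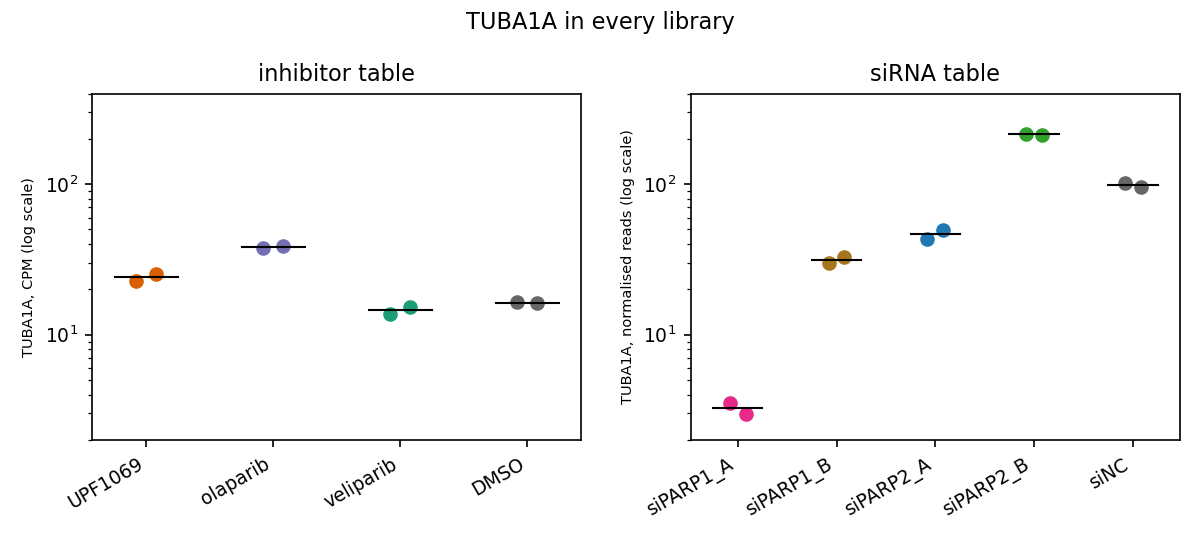
TUBA1A in every library of the inhibitor table (left, CPM) and the siRNA table (right, normalised reads), both on a log axis, with a point per library and a line at the group mean. Olaparib and UPF1069 libraries lie above the DMSO libraries; siPARP2_B libraries lie above siNC and the other 3 siRNAs below it.

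The 2 sequences against the same target were compared directly. The choice of genes did not rest on this comparison, but it used the TUBA1A values of these same libraries. The TUBA1A differences below are not independent of that choice and are therefore given without a p-value. TUBA1A was lower with siPARP1_A than with siPARP1_B by 2.93 on the log2 scale (log2 difference -2.93 ± 0.083 SE, a 7.64-fold difference). It was lower with siPARP2_A than with siPARP2_B by 2.19 (-2.19 ± 0.083 SE, 4.55-fold). The spread between the PARP2 sequences therefore crosses the siNC level, while both PARP1 sequences stay under it.

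Among the other alpha-tubulins, TUBA1B moved opposite to TUBA1A with siPARP2_B. It had 224 and 214 normalised reads with siPARP1_A, 148 and 149.98 with siPARP1_B, 181 and 209.7 with siPARP2_A and 90.9 and 101 with siPARP2_B, against 187 and 207 with siNC. It fell with siPARP2_B (log2 difference -1.03 ± 0.069 SE, limma adjusted p = 1.88e-12, 2.04-fold) and with siPARP1_B (-0.40 ± 0.069 SE, adjusted p = 6.15e-05). Both siPARP1_A libraries were above both siNC libraries, but the difference did not pass the test (adjusted p = 0.0613; 0.0479 with the replicate number as a block).

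TUBA1C, the other ubiquitous alpha isotype, had 135 and 125 with siPARP1_A, 122 and 133 with siPARP1_B, 149 and 174 with siPARP2_A and 183 and 215 with siPARP2_B, against 131 and 138 with siNC. It rose with siPARP2_B (0.56 ± 0.075 SE, limma adjusted p = 4.27e-07) and with siPARP2_A (0.26 ± 0.075 SE, adjusted p = 0.00616), although the siPARP2_A call ended without siPARP2_A replicate 2 (adjusted p = 0.183) or siNC replicate 1 (0.0567). TUBA1C libraries of both PARP1 siRNAs overlapped the siNC libraries and did not pass the test.

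TUBA4A, an alpha isotype known from muscle, testis and brain, had 277 and 267 with siPARP1_A, 129 and 130.01 with siPARP1_B, 264 and 295 with siPARP2_A and 208 and 242 with siPARP2_B, against 165 and 164 with siNC. It rose with siPARP1_A (0.72 ± 0.066 SE, limma adjusted p = 1.26e-09), siPARP2_A (0.76 ± 0.066 SE, adjusted p = 8.87e-10) and siPARP2_B (0.45 ± 0.066 SE, adjusted p = 1.97e-06), and fell with siPARP1_B (-0.34 ± 0.066 SE, adjusted p = 0.00019). The siPARP1_A and siPARP2_A libraries overlap each other and lie above all others. Its transcript overlaps STK16, which holds 27.4% of its 50-base stretches.

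**Figure D2:**
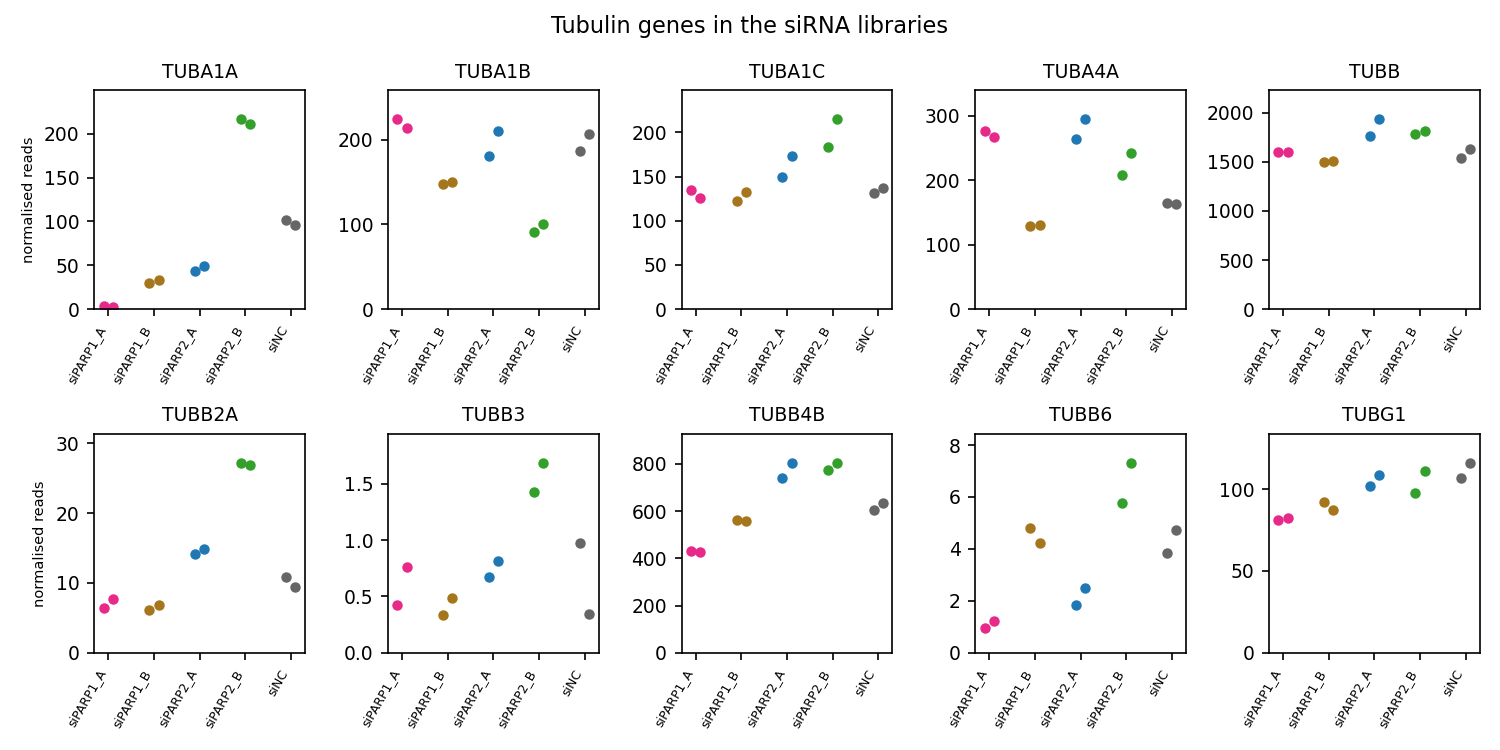
Normalised reads of each of the 10 tubulin genes in the 10 knockdown libraries, a point per library, each panel on its own linear axis from 0. TUBA1A spans the widest range, TUBB2A, TUBB3 and TUBB6 have their highest libraries with siPARP2_B, and TUBA1B has its lowest there.

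TUBB and TUBB4B carried nearly all beta-tubulin reads. TUBB had 1605 and 1603 normalised reads with siPARP1_A, 1495 and 1509 with siPARP1_B, 1768 and 1936 with siPARP2_A and 1783 and 1817 with siPARP2_B, against 1543 and 1635 with siNC. It rose slightly with siPARP2_A (0.22 ± 0.060 SE, limma adjusted p = 0.00351) and siPARP2_B (0.18 ± 0.060 SE, adjusted p = 0.0101). With siPARP2_B it was 0.35 under scaling by total reads. The siPARP2_A call ended without siPARP2_A replicate 2 (adjusted p = 0.0854), and the siPARP2_B call without siNC replicate 1 (0.0615) or siPARP2_B replicate 2 (0.062).

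TUBB4B had 431 and 428 with siPARP1_A, 562 and 559 with siPARP1_B, 740.4 and 806 with siPARP2_A and 776 and 802 with siPARP2_B, against 604 and 636 with siNC. Every PARP1 siRNA library was below and every PARP2 siRNA library above both controls. It fell with siPARP1_A (-0.53 ± 0.055 SE, limma adjusted p = 1.48e-08) and rose with siPARP2_A (0.32 ± 0.055 SE, adjusted p = 4.11e-05) and siPARP2_B (0.35 ± 0.055 SE, adjusted p = 5.89e-06). The siPARP1_B difference was smaller (-0.14 ± 0.055 SE, adjusted p = 0.0416), and edgeR (0.12) and DESeq2 (0.104) on the recovered reads did not call it, nor did the fit without siNC replicate 2 (0.193), siPARP1_B replicate 1 (0.124) or siPARP1_B replicate 2 (0.148).

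The low beta-tubulins moved by larger factors. TUBB2A, a neuronal beta isotype, had 6.47 and 7.64 with siPARP1_A, 6.13 and 6.77 with siPARP1_B, 14.2 and 14.9 with siPARP2_A and 27.2 and 26.8 with siPARP2_B, against 10.9 and 9.36 with siNC. No siRNA library overlapped the controls. It fell with siPARP1_A (-0.47 ± 0.12 SE, limma adjusted p = 0.00138) and siPARP1_B (-0.58 ± 0.12 SE, adjusted p = 0.000281) and rose with siPARP2_A (0.48 ± 0.12 SE, adjusted p = 0.00118) and siPARP2_B (1.34 ± 0.12 SE, adjusted p = 2.13e-10, 2.52-fold).

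TUBB6, a divergent beta isotype, did not follow the target. It had 0.967 and 1.21 with siPARP1_A, 4.79 and 4.21 with siPARP1_B, 1.83 and 2.50 with siPARP2_A and 5.77 and 7.33 with siPARP2_B, against 3.83 and 4.71 with siNC, from 16 to 130 reads. It fell with both A sequences, by 1.33 with siPARP1_A (-1.33 ± 0.16 SE, limma adjusted p = 1.83e-07) and by 0.74 with siPARP2_A (-0.74 ± 0.16 SE, adjusted p = 0.00056). The rise with siPARP2_B (0.52 ± 0.16 SE, adjusted p = 0.00749) ended without siNC replicate 1 (adjusted p = 0.0932) or siPARP2_B replicate 2 (0.115).

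TUBB3, the beta isotype used as a neuronal marker, averaged under 1 in both tables and was not tested. It had 0.423 and 0.764 with siPARP1_A, 0.333 and 0.484 with siPARP1_B, 0.673 and 0.813 with siPARP2_A and 1.43 and 1.69 with siPARP2_B, against 0.974 and 0.345 with siNC, between 5 and 30 reads. Only the siPARP2_B libraries lay outside the range of the controls on the high side.

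TUBG1, the main gamma-tubulin of dividing cells, had 81.3 and 82.6 with siPARP1_A, 92.2 and 87.4 with siPARP1_B, 102 and 109 with siPARP2_A and 97.8 and 111 with siPARP2_B, against 107 and 116 with siNC. It fell with siPARP1_A (-0.44 ± 0.068 SE, limma adjusted p = 5.85e-06) and siPARP1_B (-0.31 ± 0.068 SE, adjusted p = 0.000724). The libraries of both PARP2 siRNAs overlapped those of siNC and did not pass the test. In bulk RNA, fewer cells of a kind and less RNA per cell cannot be told apart.

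Of the 8 tested genes other than TUBA1A, 1 rose and 4 fell with siPARP1_A, where 54.4% of all 12701 tested genes were called, 25.5% higher and 28.9% lower. With siPARP1_B, 0 rose and 5 fell (40.4% of all genes called, 16.4% higher and 23.9% lower). With siPARP2_A, 5 rose and 1 fell (49.4% of all genes called, 24.5% higher and 24.9% lower). With siPARP2_B, 6 rose and 1 fell (66.1% of all genes called, 30.9% higher and 35.2% lower). Calls were common among all genes in these tables, and the share of tubulin genes called was of the same order. The median log2 difference of the 8 genes was -0.24 with siPARP1_A, -0.23 with siPARP1_B, 0.24 with siPARP2_A and 0.40 with siPARP2_B, beside medians over all genes of -0.0089, -0.031, -0.0018 and -0.026. The 4 comparisons share the siNC libraries. Scaling by total reads alone shifted the median of all genes by 0.149 with siPARP2_B, and the share of higher genes among all those called was then 61.3% in place of 46.8% with siPARP2_B and 57.0% in place of 46.9% with siPARP1_A.

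**Figure D3:**
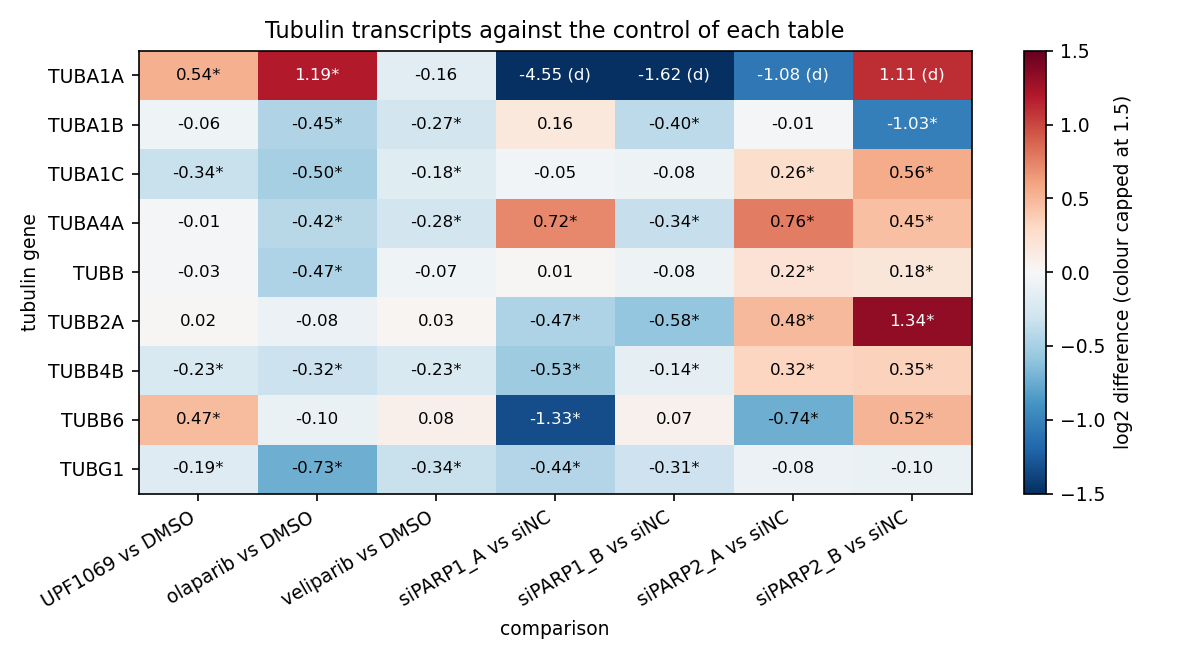
Log2 difference of 9 tubulin genes (rows) from DMSO or siNC in each comparison (columns); an asterisk marks a limma adjusted p below 0.05, (d) marks values described without a test, and TUBB3 is left out because it averaged under 1. TUBB2A and TUBB4B are lower with both PARP1 siRNAs and higher with both PARP2 siRNAs. TUBA4A lies on opposite sides of siNC with the PARP1 sequences, TUBA1A with the PARP2 sequences, TUBB6 with both pairs and TUBA1B with the PARP1 sequences.

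Direct comparison of sequences gave 5 of 9 tested genes called between the PARP1 siRNAs, 2 higher and 3 lower with siPARP1_A (54.8% of all genes called, 28.4% higher and 26.5% lower). Between the PARP2 siRNAs 6 of 9 were called, 2 higher and 4 lower with siPARP2_A (64.8% of all genes called, 34.3% higher and 30.6% lower). TUBA1A is among the lower genes in both counts, and its call there is not independent of how the genes were chosen. With siPARP1_A, TUBA1B (0.55 ± 0.069 SE, limma adjusted p = 2.74e-07) and TUBA4A (1.07 ± 0.066 SE, adjusted p = 1.03e-12) were higher than with siPARP1_B, and TUBB4B (-0.39 ± 0.055 SE, adjusted p = 2.2e-06) and TUBB6 (-1.40 ± 0.16 SE, adjusted p = 8.23e-08) were lower. With siPARP2_A, TUBA1B (1.02 ± 0.069 SE, adjusted p = 2.73e-12) and TUBA4A (0.32 ± 0.066 SE, adjusted p = 0.00018) were higher than with siPARP2_B, and TUBA1C (-0.30 ± 0.075 SE, adjusted p = 0.00107), TUBB2A (-0.85 ± 0.12 SE, adjusted p = 5.24e-07) and TUBB6 (-1.25 ± 0.16 SE, adjusted p = 2.72e-07) were lower. Scaling by total reads shifted the median of all genes between the PARP2 siRNAs by -0.172, with 35.5% in place of 52.9% of called genes higher. It ended the TUBA4A call there (0.13, adjusted p = 0.083), gave -0.49 for TUBA1C and added TUBB (-0.15, adjusted p = 0.0153), TUBB4B (-0.22, adjusted p = 0.000768) and TUBG1 (-0.18, adjusted p = 0.0292) as lower with siPARP2_A, 8 genes called in place of 6. The TUBA1C difference was -0.19 and not called without siPARP2_A replicate 1 (0.0584), and -0.19 without siPARP2_B replicate 2 (0.0499); TUBA4A was 0.21 without siPARP2_B replicate 1. The siPARP2_B libraries had less PARP1 mRNA than the siPARP2_A libraries, as given above, and the part of this in the tubulin differences was not tested.

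Values divided by transcript length are set beside each other here for the alpha genes. The share of 50-base stretches found in another gene differs between them, at 51.8% for TUBA1A and 87.1% for TUBA1B. How shared reads were counted is not given, so ranks and percentages between genes are uncertain to that extent. TUBA1A made up 0.555% of the summed level of the 4 alpha genes with siPARP1_A, 7.81% with siPARP1_B, 7.39% with siPARP2_A and 32.8% with siPARP2_B, against 17.6% with siNC. TUBA1B made up 17.3% with siPARP2_B, against 41.3% with siNC. As counted, the TUBA1A value was above the TUBA1B value with siPARP2_B. The sum itself, in normalised reads per kilobase, was 306 ± 10.2 with siPARP1_A, 210.3 ± 4.9 with siPARP1_B, 327 ± 31 with siPARP2_A and 341 ± 20.9 with siPARP2_B, against 293 ± 7.9 with siNC (SD, n = 2 each). The siPARP1_B sum was below, and both PARP2 sums above, the control libraries, while the siPARP1_A libraries overlapped them. The summed level of the 5 beta genes was 868 ± 0.85 with siPARP1_A, 912 ± 2.5 with siPARP1_B, 1177 ± 73.4 with siPARP2_A and 1177 ± 20.6 with siPARP2_B, against 983 ± 37.4 with siNC, with TUBB at 57.3 to 69.2% and TUBB4B at 30.2 to 40.9% of it.

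**Figure D4:**
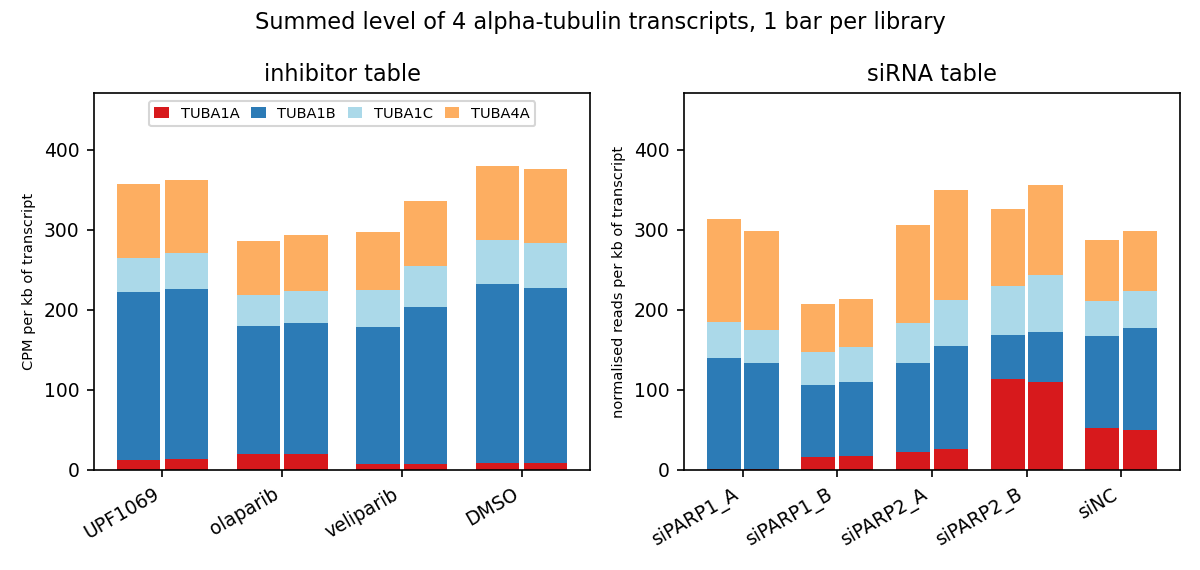
Summed level per kilobase of TUBA1A, TUBA1B, TUBA1C and TUBA4A, stacked, with a bar per library, in the inhibitor table (left, CPM per kb) and the siRNA table (right, normalised reads per kb). TUBA1A is the thin bottom layer in the inhibitor table and reaches 32.8% of the bar with siPARP2_B.

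With olaparib, TUBA1A rose while 6 of the other 8 tested tubulin genes fell. It had 22.8 and 25.5 CPM in UPF1069 libraries, 37.8 and 38.9 CPM in olaparib libraries and 13.6 and 15.4 CPM in veliparib libraries, against 16.4 and 16.2 CPM in DMSO libraries. It rose with olaparib (log2 difference 1.19 ± 0.069 SE, limma adjusted p = 2.66e-12, 2.28-fold) and with UPF1069 (0.54 ± 0.069 SE, adjusted p = 5.09e-06, 1.45-fold). Both veliparib libraries lay below both DMSO libraries, but the difference did not pass the test (adjusted p = 0.0726); without veliparib replicate 2, the higher of the pair, it did (0.00247). Per kilobase, TUBA1A made up 3.50% of the summed alpha level with UPF1069, 6.90% with olaparib and 2.40% with veliparib, against 2.25% with DMSO.

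The other alpha-tubulins fell with olaparib. TUBA1B had 342 and 347 CPM with UPF1069, 261 and 266 with olaparib and 278 and 318 with veliparib, against 364 and 355 with DMSO. It fell with olaparib (-0.45 ± 0.046 SE, limma adjusted p = 3.07e-08) and veliparib (-0.27 ± 0.046 SE, adjusted p = 6.08e-05). TUBA1C had 129.5 and 134 CPM with UPF1069, 116 and 119.5 with olaparib and 140.3 and 155 with veliparib, against 166 and 168 with DMSO, and it fell with UPF1069 (-0.34 ± 0.044 SE, adjusted p = 6.5e-06), olaparib (-0.50 ± 0.044 SE, adjusted p = 3.37e-09) and veliparib (-0.18 ± 0.044 SE, adjusted p = 0.00288). TUBA4A had 198 and 198 CPM with UPF1069, 146 and 152 with olaparib and 156 and 173 with veliparib, against 199.9 and 199.7 with DMSO, and it fell with olaparib (-0.42 ± 0.044 SE, adjusted p = 4.71e-08) and veliparib (-0.28 ± 0.044 SE, adjusted p = 2.91e-05). With UPF1069, TUBA1B and TUBA4A did not pass the test. Without veliparib replicate 1, the veliparib differences of TUBA1B and TUBA1C were -0.18 and -0.11.

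**Figure D5:**
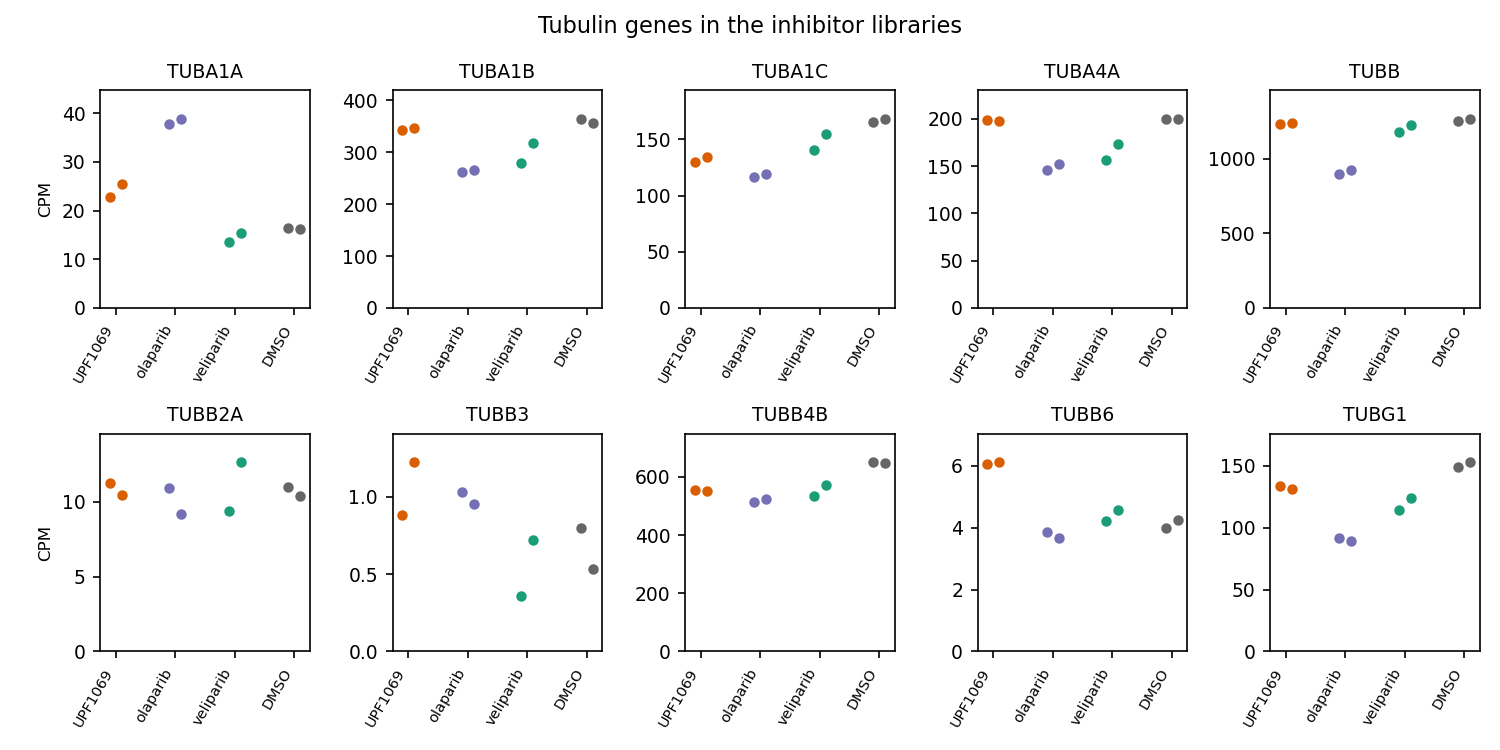
CPM of each of the 10 tubulin genes in the 8 inhibitor-table libraries, a point per library, each panel on its own linear axis from 0. TUBA1A is highest with olaparib, TUBB6 with UPF1069, and TUBA1B, TUBA1C, TUBA4A, TUBB, TUBB4B and TUBG1 are highest in the DMSO libraries.

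TUBB had 1238 and 1239 CPM with UPF1069, 900.08 and 925 with olaparib and 1178 and 1226 with veliparib, against 1254 and 1269 with DMSO. It fell with olaparib (-0.47 ± 0.036 SE, limma adjusted p = 3.73e-10), and its libraries with UPF1069 and veliparib, all under the DMSO libraries, did not pass the test. TUBB4B had 554 and 553 CPM with UPF1069, 516 and 523 with olaparib and 535 and 571 with veliparib, against 650.2 and 647 with DMSO, and it fell with UPF1069 (-0.23 ± 0.037 SE, adjusted p = 0.000102), olaparib (-0.32 ± 0.037 SE, adjusted p = 2.13e-07) and veliparib (-0.23 ± 0.037 SE, adjusted p = 3.97e-05). TUBB6 rose with UPF1069, at 6.05 and 6.10 CPM, with 3.84 and 3.67 CPM for olaparib and 4.22 and 4.57 CPM for veliparib, against 3.98 and 4.24 CPM for DMSO (UPF1069 0.47 ± 0.097 SE, adjusted p = 0.00114). TUBB2A stayed between 9.19 and 12.6 CPM in all 8 libraries with overlapping groups, and TUBB3 between 0.357 and 1.22 CPM, where its UPF1069 and olaparib libraries lay above the DMSO libraries and were not tested.

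TUBG1 had 134 and 131 CPM with UPF1069, 92.1 and 89.0 with olaparib and 114 and 124 with veliparib, against 149 and 153 with DMSO. It fell with olaparib (-0.73 ± 0.044 SE, limma adjusted p = 4.32e-12, a 1.66-fold difference), veliparib (-0.34 ± 0.044 SE, adjusted p = 2.59e-06) and UPF1069 (-0.19 ± 0.044 SE, adjusted p = 0.00318). The UPF1069 call ended without DMSO replicate 2 (adjusted p = 0.0599) or UPF1069 replicate 2 (0.0637). Its paralog TUBG2 did the opposite with olaparib, at 17.1 ± 0.22 CPM against 12.7 ± 1.1 CPM with DMSO (0.41 ± 0.077 SE, adjusted p = 0.000115; SD, n = 2 each).

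Of the 9 tested genes, 2 rose and 3 fell with UPF1069, where 24.3% of all 13337 tested genes were called, 10.3% higher and 14% lower. With olaparib 1 rose and 6 fell (52.5% of all genes called, 25.8% higher and 26.8% lower), and with veliparib 0 rose and 5 fell (40.4% of all genes called, 17.2% higher and 23.2% lower). The median log2 difference of the 9 genes was -0.027 with UPF1069, -0.42 with olaparib and -0.18 with veliparib, beside -0.018, 0.00091 and -0.0034 over all genes. The summed alpha level per kilobase was 359.7 ± 4.0 CPM with UPF1069, 290.2 ± 5.3 with olaparib and 316 ± 27.1 with veliparib, against 378 ± 3.3 with DMSO, and the beta sum was 812 ± 0.20, 668 ± 8.7 and 797 ± 30.3 CPM in the same order of compounds, against 878 ± 2.0 with DMSO (SD, n = 2 each). Across all genes the veliparib differences moved with GC content (Spearman's rho -0.698), and after a GC and length correction the TUBB4B difference with veliparib was -0.02 (adjusted p = 0.621). Under that correction TUBA4A was -0.10 in place of -0.28 (adjusted p = 0.0197) and TUBG1 -0.17 in place of -0.34 (adjusted p = 0.000306). TUBA1B and TUBA1C stayed called, and TUBB6, not called otherwise, passed as higher (0.29, adjusted p = 0.0287). The part of GC content in the veliparib values was not tested beyond that correction.

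At the same dose and time the compounds differed from each other in 3 pairs, each of which shares its spread estimate with the others. UPF1069 against olaparib gave 7 tubulin genes higher and 1 lower (51.2% of all genes called, 24.2% higher and 27% lower), the lower being TUBA1A (-0.65 ± 0.069 SE, limma adjusted p = 7.24e-08); the largest rises were TUBB6 (0.57 ± 0.097 SE, adjusted p = 4.19e-05) and TUBG1 (0.54 ± 0.044 SE, adjusted p = 8.18e-10). Here TUBB4B (0.09 ± 0.037 SE, adjusted p = 0.043) was no longer called without any 1 of the 4 libraries (0.111 to 0.192), and TUBA1C (0.16 ± 0.044 SE) without UPF1069 replicate 2 (0.0787) or olaparib replicate 1 (0.0632). Olaparib against veliparib gave 1 higher and 6 lower (59.5% of all genes called, 31.7% higher and 27.7% lower), with TUBA1A higher (1.35 ± 0.069 SE, adjusted p = 2.73e-13) and TUBB (-0.40 ± 0.036 SE, adjusted p = 4.11e-09) and TUBG1 (-0.39 ± 0.044 SE, adjusted p = 8.98e-08) lower. The lower TUBA4A and TUBB4B of that pair were not called without veliparib replicate 2 (0.106 and 0.202) or olaparib replicate 1 (0.123 and 0.183), and TUBB4B also without olaparib replicate 2 (0.0989). The TUBA1B difference of this pair, -0.18, was -0.08 without veliparib replicate 2 and -0.27 without veliparib replicate 1. After the GC and length correction TUBA4A was -0.26 in place of -0.14 and TUBB4B -0.27 in place of -0.09, and TUBB2A (-0.28, adjusted p = 0.00893) and TUBB6 (-0.35, adjusted p = 0.00267) passed as lower. UPF1069 against veliparib gave 5 higher and 1 lower (50.8% of all genes called, 25.9% higher and 24.9% lower), among them TUBA1A (0.70 ± 0.069 SE, adjusted p = 3.96e-08) and TUBA4A (0.27 ± 0.044 SE, adjusted p = 3.13e-05). In this pair the differences of all genes moved with GC content (Spearman's rho 0.645). After the GC and length correction TUBA4A was 0.09 (adjusted p = 0.0241), TUBG1, 0.15 higher with UPF1069 otherwise, was -0.0205, the TUBB6 call ended (0.163), and TUBB4B, not called otherwise, passed as lower (-0.21, adjusted p = 2.04e-07). TUBA1C and TUBG1 were also not called without UPF1069 replicate 1 (0.076 and 0.0757). Without veliparib replicate 1, TUBA1B was 0.11 in place of 0.21 and TUBG1 0.09, and without veliparib replicate 2, TUBA1C was -0.09 in place of -0.16.

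Of the other alpha- and beta-tubulin genes, 3 were tested in each table. TUBA3D, an alpha isotype known from testis, had 0.529 ± 0.19 CPM with olaparib, against 6.79 ± 0.51 CPM with DMSO (-2.35 ± 0.13 SE, limma adjusted p = 9.2e-13), and its near copy TUBA3E had 0.131 ± 0.013 CPM with olaparib, against 2.50 ± 0.21 CPM with DMSO (-1.63 ± 0.13 SE, adjusted p = 4.1e-10). TUBA3D also had 1.501 ± 0.19 normalised reads with siPARP2_B and 5.69 ± 0.17 with siPARP2_A, against 18.6 ± 1.3 with siNC (-2.97 and -1.55 ± 0.12 SE, adjusted p = 9.7e-17 and 1.53e-10). It also fell with veliparib (-0.47 ± 0.13 SE, limma adjusted p = 0.00543) and siPARP1_A (-0.30 ± 0.12 SE, adjusted p = 0.0384). TUBA3D was not called with UPF1069 or siPARP1_B. The TUBA3E level with olaparib was close to the value of 3 reads, 0.0841 to 0.113 CPM. Reads of TUBA3D and TUBA3E may be shared. The third gene, TUBB4A, had 12.7 ± 2.7 CPM with veliparib, against 19.4 ± 0.57 CPM with DMSO (-0.59 ± 0.090 SE, limma adjusted p = 2.15e-05). It had 4.79 ± 0.32 normalised reads with siPARP2_A, against 3.31 ± 0.55 with siNC (0.43 ± 0.15 SE, limma adjusted p = 0.021). TUBB4A was not called in the other comparisons with DMSO or siNC.

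The wider pathway lists are read against the shares of all genes called. Those shares were 10.3% higher and 14% lower with UPF1069, 25.8% and 26.8% with olaparib, 17.2% and 23.2% with veliparib, 25.5% and 28.9% with siPARP1_A, 16.4% and 23.9% with siPARP1_B, 24.5% and 24.9% with siPARP2_A, and 30.9% and 35.2% with siPARP2_B.

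Tubulin chains are folded by the chaperonin CCT, fed by prefoldin, and assembled by the cofactors TBCA to TBCE. Of 14 CCT and prefoldin genes, 13 rose and 0 fell with siPARP2_A (median 0.38), where 24.5% of all genes rose, 5 rose and 5 fell with siPARP2_B, 4 rose and 2 fell with siPARP1_A and 1 rose and 2 fell with siPARP1_B. With the inhibitors 1 rose and 5 fell with UPF1069, 3 rose and 5 fell with olaparib and 3 rose and 1 fell with veliparib. CCT8, a chaperonin subunit, differed between the PARP2 sequences, at 1135 ± 46.5 with siPARP2_A and 494 ± 10.3 with siPARP2_B (1.20 ± 0.056 SE, limma adjusted p = 1.62e-15). Prefoldin subunit PFDN6 averaged 114 ± 11.8 with siPARP2_A and 101 ± 4.1 with siPARP2_B, against 55.4 ± 1.3 with siNC (1.02 and 0.86, adjusted p = 9.7e-12 and 5.12e-11), and the prefoldin subunit VBP1 fell with siPARP1_A (-2.33, adjusted p = 1.99e-19), siPARP1_B (-0.37, adjusted p = 5.45e-05) and siPARP2_B (-0.40, adjusted p = 5.56e-06) and rose with olaparib (0.32, adjusted p = 0.000396) and siPARP2_A (0.18, adjusted p = 0.0233). Of the 8 folding cofactors, 3 rose and 0 fell with olaparib, 1 rose and 3 fell with veliparib, 1 rose and 3 fell with siPARP1_A, 0 rose and 4 fell with siPARP1_B, 3 rose and 2 fell with siPARP2_A and 2 rose and 0 fell with siPARP2_B. None was called with UPF1069.

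Of the 3 autoregulation genes, SCAPER, the adaptor between TTC5 and the deadenylase, rose with olaparib (0.40, limma adjusted p = 3.02e-05) and veliparib (0.24, adjusted p = 0.00684) and fell with siPARP1_B (-0.23, adjusted p = 0.0486). CNOT11, a subunit of the CCR4-NOT deadenylase, fell with siPARP2_B (-1.30, adjusted p = 2.75e-14), siPARP1_B (-0.29, adjusted p = 0.00187) and siPARP2_A (-0.20, adjusted p = 0.0208). TTC5 itself was called in none of the comparisons with DMSO or siNC. Among 12 tested gamma ring complex and minor tubulin genes, 1 rose and 5 fell with UPF1069, 3 rose and 7 fell with olaparib (25.8% and 26.8% of all genes) and 0 rose and 3 fell with veliparib. In the knockdowns 6 rose and 3 fell with siPARP1_A (25.5% and 28.9% of all genes), 7 rose and 1 fell with siPARP1_B, 4 rose and 1 fell with siPARP2_A and 5 rose and 4 fell with siPARP2_B. MZT1, a small gamma ring subunit, rose with siPARP1_A (0.90, adjusted p = 2.73e-09), siPARP1_B (0.73, adjusted p = 2.22e-07), siPARP2_A (0.55, adjusted p = 8.34e-06) and siPARP2_B (0.19, adjusted p = 0.0495), and fell with olaparib (-0.41, adjusted p = 5.89e-05) and UPF1069 (-0.27, adjusted p = 0.0101).

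Of 15 tested enzymes that modify tubulin, 2 rose and 1 fell with UPF1069 and 1 rose and 3 fell with veliparib. With olaparib 7 rose and 2 fell (25.8% and 26.8% of all genes). In the knockdowns 1 rose and 6 fell with siPARP1_A (25.5% and 28.9% of all genes), 3 rose and 3 fell with siPARP1_B, 2 rose and 5 fell with siPARP2_A and 4 rose and 5 fell with siPARP2_B. The deacetylase SIRT2 fell with all 4 siRNAs, from -0.32 with siPARP1_A (limma adjusted p = 0.00157) to -1.35 with siPARP2_B (adjusted p = 1.34e-13). It also fell with veliparib (-0.19, adjusted p = 0.000816) and rose with olaparib (0.40, adjusted p = 4.28e-08) and UPF1069 (0.20, adjusted p = 0.00132).

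Of 17 tested microtubule stabilisers and end-binding proteins, 3 rose and 7 fell with siPARP1_A, 1 rose and 4 fell with siPARP1_B, 2 rose and 9 fell with siPARP2_A and 5 rose and 6 fell with siPARP2_B (30.9% and 35.2% of all genes). Of 18 in the inhibitor table, 4 rose and 3 fell with UPF1069, 4 rose and 6 fell with olaparib and 8 rose and 4 fell with veliparib (17.2% and 23.2% of all genes). Of 7 tested destabilisers and severing enzymes, no more than 2 rose and no more than 3 fell in any comparison with DMSO or siNC. Among them STMN1 averaged 28.4 ± 0.43 with siPARP2_B and 176 ± 6.3 with siPARP1_A, against 122 ± 10.5 with siNC (SD, n = 2 each). It fell with siPARP2_B (-2.06 ± 0.069 SE, limma adjusted p = 1.6e-18) and rose with siPARP1_A (0.52 ± 0.069 SE, adjusted p = 5.88e-07). It also fell with olaparib (-0.43, adjusted p = 4.44e-08) and siPARP2_A (-0.21, adjusted p = 0.0128). The end-binding protein MAPRE2 rose with siPARP2_B (2.07, adjusted p = 7.17e-14), siPARP2_A (0.70, adjusted p = 2.71e-05), siPARP1_A (0.33, adjusted p = 0.0196) and olaparib (0.71, adjusted p = 1.71e-09). MAP1B, a microtubule stabiliser, fell with siPARP1_A (-2.13, adjusted p = 1.25e-16) and rose with olaparib (0.64, adjusted p = 1.4e-10), veliparib (0.39, adjusted p = 1.03e-06) and UPF1069 (0.18, adjusted p = 0.00618).

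The genes most like TUBA1A over the 10 knockdown libraries, among 8650 ranked by Pearson's r, were GID8 (0.994), XPNPEP1 (0.992), ADAM10 (0.991), AIFM1 (0.990) and LPAR3 (0.988). Over the 8 inhibitor libraries the same 5 had r of -0.721, -0.751, 0.742, -0.0662 and -0.839 with TUBA1A. All points share 2 libraries per group and a common scaling, so these are descriptions of the group pattern. Within the family TUBA1A had r of 0.864 with TUBB4B and -0.669 with TUBA1B over the knockdown libraries, and -0.616 and -0.529 over the inhibitor libraries. Over the knockdown libraries it was also 0.864 with TUBB6, 0.817 with TUBG1, 0.741 with TUBB2A, 0.636 with TUBA1C, 0.557 with TUBB3, 0.389 with TUBB and -0.268 with TUBA4A. In the same order these were -0.111, -0.729, -0.254, -0.848, 0.758, -0.827 and -0.449 over the inhibitor libraries.

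The promoter of TUBA1A is shown because its transcript rose with olaparib while TUBA1B and TUBA1C fell. Over the knockdown libraries TUBA1A also moved against TUBA1B (r of -0.669), but with TUBA1C (0.636). The 250 bases before the start in RefSeq's table are chr12:49189081-49189330 of GRCh38.p14, minus strand, with CCAAT on either strand in capitals.
TUBA1A: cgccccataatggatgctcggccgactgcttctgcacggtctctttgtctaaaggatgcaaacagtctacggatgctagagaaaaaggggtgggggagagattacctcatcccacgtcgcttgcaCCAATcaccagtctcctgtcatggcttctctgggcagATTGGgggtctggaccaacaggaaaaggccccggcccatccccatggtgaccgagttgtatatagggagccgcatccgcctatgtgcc
The motif CCAAT began 125 and 88 bases before the start, and TATAAA and GGGCGG, read on both strands, had no match in this window. Only these exact letters were looked for, and variants such as the tatata in this sequence were not counted. The 10 genes have 15 promoter windows, since several genes have more than 1. Of these windows 9 held CCAAT, 1 (TUBB2A) TATAAA and 9 GGGCGG. Among all 35116 promoter windows 32.0%, 10.7% and 42.6% held the same letters. Counted by gene, 7 had CCAAT, 1 TATAAA and 8 GGGCGG in at least 1 window. The genes with CCAAT were TUBA1A, TUBA1C, TUBB, TUBB3, TUBB4B, TUBB6 and TUBG1. The motif is therefore not particular to TUBA1A, since TUBA1C, TUBB, TUBB4B and TUBG1 fell with olaparib. Its part in the transcript levels was not tested.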

How the data were processed

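The inhibitor table holds CPM and the siRNA table a normalised signal (reads scaled by library size), both as deposited by the authors; per the submitters' processing notes bcl2fastq 2.18, TopHat2 2.1.0, HTSeq 0.6.1 and edgeR 3.12.0 were used with hg19, with no roles given. Annotation, strandedness and read length are not given in the sources used here. Values above 0 were whole multiples of 1 read (100.0%, tolerance 0.01), so reads were recovered. All genes with a table mean of at least 1 (13337 and 12701) were fitted with limma 3.58.1 (R 4.3.3) on log2(value + 1), all groups of a table together, 2-sided, with Benjamini-Hochberg adjustment over all of them and a threshold of 0.05. Fold changes on this scale understate changes of low genes. Alternatives were a pseudocount of 0.5, no filter, total-read scaling, only the groups compared and a replicate block. Others were a GC and length correction, leaving out each library, and edgeR 4.0.16 and DESeq2 1.42.0 on recovered reads. The limma fit was also run on simulated reads in which far fewer genes changed than were called here. That run therefore does not measure how the fit performs on these data. Sequences came from GENCODE v29 and, for the promoter, RefSeq. All 10 genes are named; per list and comparison, genes called with the largest differences were eligible, and for several named genes calls in other comparisons are given too. The genes and lists were chosen with earlier results of these data known.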

Additional observations from a re-analysis of the deposited data

Results flagged for a closer look

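For 4 tubulin genes, 2 siRNA sequences against the same target moved the transcript to opposite sides of siNC and differed from each other by limma. Between siPARP1_A and siPARP1_B the log2 difference was 0.55 for TUBA1B, 1.07 for TUBA4A and -1.40 for TUBB6. Between siPARP2_A and siPARP2_B it was -2.19 for TUBA1A and -1.25 for TUBB6. Against siNC itself, TUBA1B with siPARP1_A and TUBB6 with siPARP1_B did not pass the main test, and TUBA1A was not tested. The genes were chosen by TUBA1A values of these same libraries, so its difference between the PARP2 sequences is not independent of that choice. PARP1 mRNA averaged 402 ± 10.2 with siPARP2_A and 153 ± 11.1 with siPARP2_B (SD, n = 2 each), and its part in these differences was not tested.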

How the results depend on the processing

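The count of tubulin genes called in each comparison stayed within 1.5 times its value under every alternative that was run, with 4 to 9 genes called. Among values for single genes called by the test, 890 of 936 kept their direction and side of the threshold, 44 lost the call and 2 reversed. Of 52 values of TUBA1A against siNC, described without a test, 4 moved by more than the spread between replicates. The reversals are both TUBG1 for UPF1069 against veliparib, -0.0205 after the GC and length correction with or without the replicate block. Of 32 gene and comparison pairs not called, 15 passed under at least 1 alternative. The replicate numbers are not said to pair libraries, and the correlation of same-numbered deviations ranged from -0.111 to 0.115 over the comparisons; the replicate block gave 6 in place of 5 genes called for siPARP1_A against siNC, through TUBA1B, and changed no other count. With 2 libraries per group, each p-value leans on a spread shared between groups. TUBB3, at 5 to 39 reads, and TUBB6, at 16 reads at the lowest in the siRNA table, are limited by depth.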
